A study of Homo sapiens with 10 samples.

Results

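The Wnt ligands, their receptors and their antagonists were examined in 2 human endothelial cell lines. Genes were chosen by symbol, with earlier results of these data known. They were the WNT ligands, the frizzled receptors (FZD), the DKK and SFRP antagonists, and the R-spondins (RSPO) with their receptors LGR4, LGR5 and LGR6. LRP5, LRP6, ROR1, ROR2, AXIN1, AXIN2, RNF43, ZNRF3, LEF1, TCF7, TCF7L1 and TCF7L2 were included as well. These names gave 56 protein-coding genes of the 60448 genes in the count table, and all of them were found. Enough reads for a test were present for 34 genes. The other 22 held at most 12 counts in any library, and 7 of them had none at all.

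EA.hy926 is a fusion of human umbilical vein endothelial cells with A549, an epithelial lung carcinoma line, and HMEC-1 is a line of dermal microvascular endothelial cells that carries the SV40 large T antigen. EA.hy926 cells grew in Advanced DMEM with 5% fetal bovine serum, whereas HMEC-1 cells grew in MCDB 131 with 10% serum, 1 µg/mL hydrocortisone and epidermal growth factor at 10 ng/mL, so line and medium cannot be told apart. Both lines were untreated and of wild-type genotype per the labels, and 5 biological replicates of each were sequenced after the cells had been detached with trypsin. Each line is a single immortalized line, and in bulk RNA fewer expressing cells and less RNA per cell cannot be told apart.

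Wnt proteins are secreted lipid-modified ligands that bind frizzled receptors on the cell surface. With LRP5 or LRP6 as co-receptor they halt the destruction complex, which is built on axin, so that beta-catenin enters the nucleus and acts with TCF/LEF factors. Other ligands act without beta-catenin through receptors such as ROR1, on cell polarity and movement. In endothelium the pathway is known for vessel growth in the retina and for the barrier of brain vessels.

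The EA.hy926 libraries held 34846046 to 39899324 counts each, and the HMEC-1 libraries held 33391640 to 43877224. Levels are TMM-scaled CPM (counts relative to library size), given as mean ± SD over the 5 libraries of a line, and a log2 fold change (log2FC), given ± its standard error, is above 0 where EA.hy926 had the higher level. The thresholds of the study were used, which are 0.05 for the adjusted p and 1 for the absolute log2FC, with p from edgeR's quasi-likelihood test adjusted over all 16310 genes tested. A floor of 3 counts equals 0.0781 to 0.0904 CPM in EA.hy926 libraries and 0.0651 to 0.0856 CPM in HMEC-1 libraries, which covers counting error only. Of 10 endothelial markers such as PECAM1 and CDH5 all were tested and none was at 0 throughout a line, though EMCN had at most 2 counts in EA.hy926, with summed levels of 4156 to 4798 CPM in EA.hy926 compared with 1565 to 1604 CPM in HMEC-1. The 8 epithelial markers summed to 680 to 738 CPM in EA.hy926 libraries and 129 to 147 CPM in HMEC-1, with CDH1 and ESRP1 at 0 in every EA.hy926 library. The keratin KRT8 carried the EA.hy926 sum (546 ± 21.7 CPM, 19.2 ± 0.947 CPM in HMEC-1), and of the 6 epithelial markers tested 3 were higher and 3 lower in EA.hy926 by adjusted p, the lower ones being KRT19, CLDN7 and CLDN4. The 8 fibroblast or mural markers summed to 411 to 469 CPM in EA.hy926 compared with 478 to 508 CPM in HMEC-1, with DCN and LUM at 0 in both lines and PDGFRA at 0 in EA.hy926. Different genes made up these sums. RGS5 had 429.96 ± 23.5 CPM in EA.hy926, while HMEC-1 had 5.05 ± 0.221 CPM of it, whereas COL1A1, COL1A2 and PDGFRB had means of at most 0.931 CPM in EA.hy926 and 358, 108 and 23.2 CPM in HMEC-1. The part of these markers in the differences below was not tested.

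Some of these genes are close relatives whose reads could be confused in counting. Among the coding sequences of the 56 genes, the longest run of identical bases between 2 genes of a family was 81 bases, in FZD1 and FZD2, and the median over 247 pairs was 16 bases. WNT5A and WNT5B, which had opposite patterns in the lines, were identical at 80.3% of 1076 aligned coding bases and shared no identical run over 35 bases. Their most alike stretch of 90 coding bases is shown, with the 5 differing bases in capitals. It lies in exon 5 of 5 of both genes on GRCh38, at chr3:55470194-55470283 on the minus strand for WNT5A and at chr12:1646061-1646150 on the plus strand for WNT5B.
WNT5A: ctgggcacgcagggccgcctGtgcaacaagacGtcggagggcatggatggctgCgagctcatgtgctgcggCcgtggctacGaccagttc
WNT5B: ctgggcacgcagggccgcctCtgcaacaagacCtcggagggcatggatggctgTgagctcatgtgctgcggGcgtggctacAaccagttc

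TCF7L1 and TCF7L2, the leading TCF/LEF transcripts of these lines, were identical at 69.9% of aligned coding bases with a longest run of 26 bases. Their most alike 90 bases, part of the HMG box that binds DNA, differed at 12 positions, again in capitals. They lie in exon 9 of 12 of TCF7L1 (chr2:85306267-85306356, plus strand) and in exon 10 of 15 of TCF7L2 (chr10:113151786-113151875, plus strand).
TCF7L1: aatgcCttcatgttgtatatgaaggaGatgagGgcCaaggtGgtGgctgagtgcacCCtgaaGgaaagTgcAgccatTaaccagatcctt
TCF7L2: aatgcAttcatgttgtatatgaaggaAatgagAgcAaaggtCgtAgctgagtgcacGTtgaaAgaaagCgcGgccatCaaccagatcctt

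Of the 34 genes tested 20 passed both thresholds (58.8%), against 35.5% of all genes tested. Higher expression in EA.hy926 was found for 10 of them (19.1% of all genes) and lower expression for 10 (16.4% of all genes). An adjusted p under 0.05 alone was reached by 31 genes, 14 higher and 17 lower, or 91.2% against 85.8% of all genes. CPM values of the lines did not overlap for 30 genes, and this held for 77.4% of all genes tested. The median log2FC was -0.13, against -0.010 over all genes tested, while the median absolute log2FC was 1.32 against 0.65. Of the 34 genes, 12 reached the filter's limit of 0.258 CPM in all 5 libraries of 1 line only, as did 2878 of the 16310 genes, so the counts are a description of the genes the filter kept. These were FZD3, LGR6, RSPO4, WNT5A, WNT10B and WNT16 in EA.hy926, and FZD9, LEF1, SFRP2, TCF7, WNT4 and WNT5B in HMEC-1. Where at least 10 counts in every library were required, 8 of 21 genes passed both thresholds, beside 24.8% of 13107 genes.

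**Figure D1:**
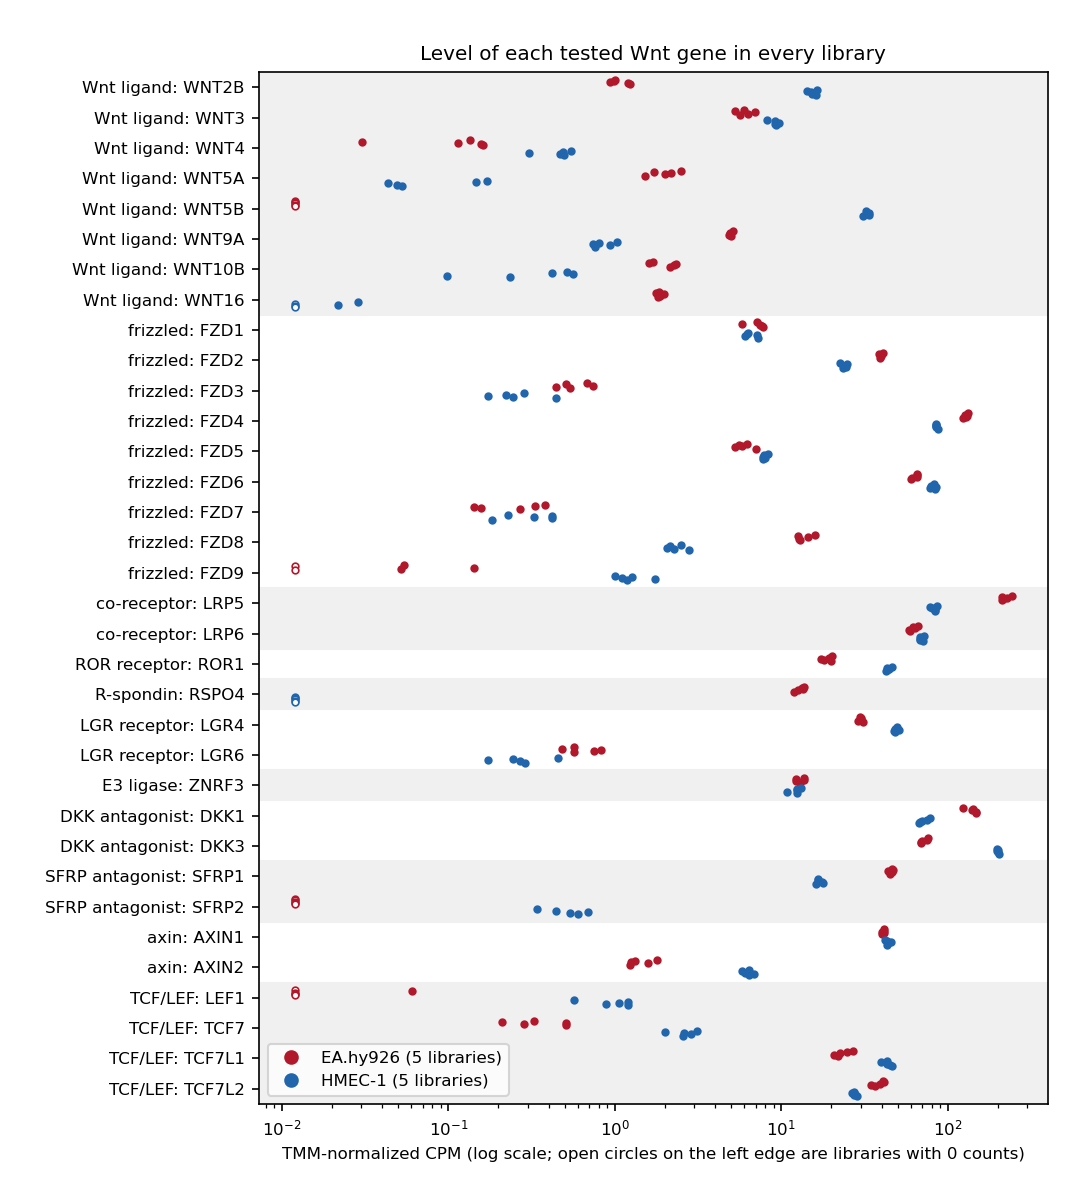
TMM-normalized CPM (log axis) of the 34 tested Wnt genes, 1 point per library, red for EA.hy926 and blue for HMEC-1, with open circles on the left edge for libraries with 0 counts. Lines do not overlap in 30 genes, and this held for 77.4% of all genes tested. WNT5B, SFRP2 (EA.hy926) and RSPO4 (HMEC-1) had no counts in any library of 1 line.

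Most of the tested Wnt ligands differed in level between the lines. Of 19 ligand genes 8 were tested, and 7 passed both thresholds, beside 35.5% of all genes tested. WNT5A, WNT9A, WNT10B and WNT16 were higher in EA.hy926, and WNT2B, WNT4 and WNT5B were lower. Among them, WNT5A, WNT10B and WNT16 reached the filter's limit in all 5 libraries of EA.hy926 only, and WNT4 and WNT5B in those of HMEC-1 only. Their entry into the test thus depended on the line where they were high. The sharpest contrast lay between WNT5A and WNT5B, a pair of closely related ligands known for signalling without beta-catenin. WNT5B (ENSG00000111186, chr12:1529891-1647212) had 0 counts in each EA.hy926 library and 32.1, 33.5, 32.5, 33.7 and 30.9 CPM in the HMEC-1 libraries. In EA.hy926 its level was lower by at least 360-fold (edgeR adjusted p = 7.6e-21). For WNT5A (ENSG00000114251, chr3:55465715-55490539) the EA.hy926 libraries held 2.49, 1.72, 2.16, 2.00 and 1.51 CPM and the HMEC-1 libraries 0.171, 0.147, 0.0434, 0.0491 and 0.0523 CPM. Its log2FC was 4.41 ± 0.285 (edgeR adjusted p = 4.0e-12), on 56 to 92 counts against 2 to 6. Every EA.hy926 library thus lay above every HMEC-1 library for WNT5A and below for WNT5B.

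WNT16, a ligand known from bone and from blood stem cell formation, was at the edge of detection in HMEC-1. The EA.hy926 libraries held 1.84, 1.78, 1.96, 1.87 and 1.81 CPM (59 to 72 counts), whereas HMEC-1 had 2 counts in all its libraries together. The ratio was 186 (95% counting interval 51.1 to 1544, edgeR adjusted p = 3.0e-14). WNT9A (ENSG00000143816, chr1:227918656-227947932), known from joint and blood development, reached 5.12, 4.91, 4.93, 4.84 and 4.99 CPM in EA.hy926 libraries and 1.03, 0.809, 0.737, 0.932 and 0.759 CPM in HMEC-1. The groups lay far apart beside their spread (log2FC = 2.54 ± 0.115, edgeR adjusted p = 7.7e-15). WNT10B, an activator of beta-catenin known to hold back fat cell formation, was measured at 1.71, 1.60, 2.33, 2.26 and 2.16 CPM in EA.hy926. Its HMEC-1 libraries were more scattered at 0.513, 0.417, 0.564, 0.0981 and 0.236 CPM, though none reached an EA.hy926 library (log2FC = 2.44 ± 0.256, edgeR adjusted p = 1.4e-08).

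On the HMEC-1 side, WNT2B (ENSG00000134245, chr1:112466541-112530165), an activator of beta-catenin, had 16.4, 14.2, 15.1, 15.4 and 16.2 CPM. EA.hy926 libraries held 1.00, 0.994, 0.940, 1.20 and 1.24 CPM of it. The log2FC was -3.83 ± 0.086 (edgeR adjusted p = 3.2e-20). Exons on the other strand, with ST7L as the gene of largest overlap, cover 21.5% of the exonic bases of WNT2B. WNT4, known for kidney and reproductive tract development, was low in both lines, at 0.135, 0.0301, 0.114, 0.156 and 0.162 CPM in EA.hy926 compared with 0.542, 0.490, 0.304, 0.466 and 0.497 CPM in HMEC-1. Its call rests on 1 to 6 counts against 14 to 20 (log2FC = -1.88 ± 0.330, edgeR adjusted p = 2.2e-05). WNT3 was the 1 tested ligand that differed by less than the fold threshold, with 6.01 ± 0.622 CPM in EA.hy926 compared with 9.08 ± 0.553 CPM in HMEC-1 (log2FC = -0.60 ± 0.075, edgeR adjusted p = 2.1e-07).

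The 11 ligands that were not tested were at or near 0 in both lines. WNT8A had no count, and WNT1, WNT2, WNT3A, WNT6, WNT7A, WNT7B, WNT8B, WNT9B and WNT10A stayed at 4 counts or fewer in every library. WNT11 had 0 to 4 counts in EA.hy926 libraries and 3 to 5 in HMEC-1. WNT7A and WNT7B, which drive the vessel barrier in the brain, are among those with at most 1 and at most 4 counts. Several WNT genes lie in neighbouring pairs, and in most pairs 1 gene was expressed while the other stayed near 0. WNT9A lies 59065 bases from WNT3A on chromosome 1, WNT10B lies 6586 bases from WNT1 on chromosome 12, and WNT3 lies 46 bases from WNT9B on chromosome 17. In these 3 pairs the first gene was tested and the second had at most 2 counts in any library. Both genes of the fourth pair, WNT6 and WNT10A, 6618 bases apart on chromosome 2, had at most 4 counts.

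Shares of the ligands were compared within each library after division by exon length, as CPM per kb. The summed level of the 19 ligands was 4.13 ± 0.248 CPM per kb in EA.hy926 compared with 11.2 ± 0.210 CPM per kb in HMEC-1. No single ligand dominated in EA.hy926, where WNT9A made up 30.1 ± 2.0% and WNT3 27.0 ± 1.3%, and their ranges over the libraries overlapped. WNT10B followed with 18.7 ± 2.3%, WNT16 with 13.8 ± 0.40% and WNT5A with 6.69 ± 1.2%. In HMEC-1, WNT5B alone made up 68.8 ± 1.2%, followed by WNT3 with 15.1 ± 0.93% and WNT2B with 11.2 ± 0.81%. With CPM not divided by length, or with coding length in place of exon length, WNT3 came before WNT9A in EA.hy926. Their shares were 33.1% and 27.4% undivided, and 31.5% and 29.4% per coding length. WNT10B, WNT16 and WNT5A were then close there, at 11.1%, 10.2% and 10.9% undivided and 10.8%, 10.3% and 11.2% per coding length. WNT5B remained first in HMEC-1, but WNT2B came before WNT3, with 26.1% and 15.4% undivided and 23.2% and 14.4% per coding length.

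**Figure D2:**
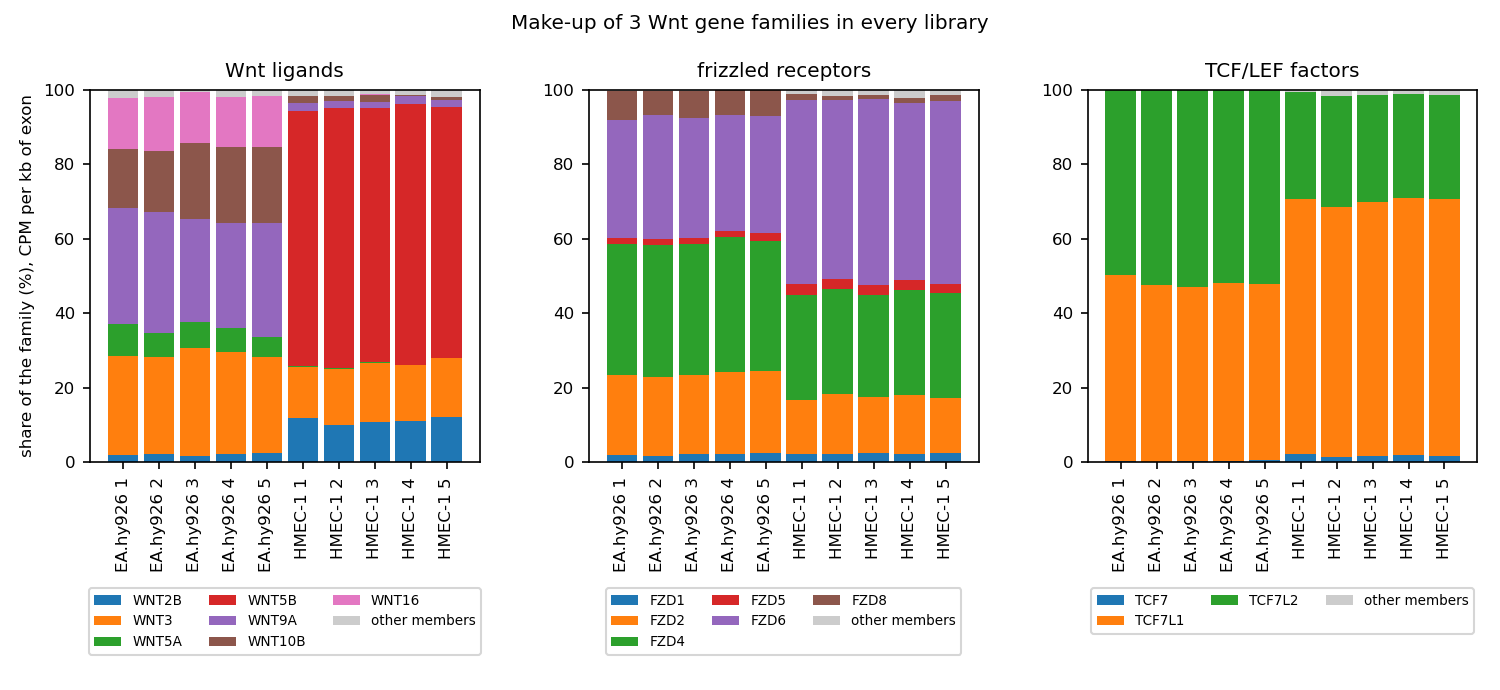
Percent share of each gene in the summed CPM per kb of exon of its family, 1 bar per library, for the Wnt ligands, frizzled receptors and TCF/LEF factors. The 5 libraries of a line are alike, and the ligands differ most, with WNT5B at 68.8% in HMEC-1 and 0% in EA.hy926.

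R-spondins strengthen Wnt signals by binding LGR receptors and so removing the E3 ligases ZNRF3 and RNF43, which clear frizzled receptors from the cell surface. RSPO4 (ENSG00000101282, chr20:958452-1002311), known for its role in nail growth, was the 1 R-spondin tested. It had 13.6, 13.3, 13.4, 12.7 and 11.9 CPM in EA.hy926 libraries and 0 counts in each HMEC-1 library. This made RSPO4 higher by at least 152-fold (edgeR adjusted p = 3.0e-18). RSPO3 held 2 to 12 counts in EA.hy926 compared with 0 to 1 in HMEC-1 and was not tested, and RSPO1 and RSPO2 had no count.

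The receptor LGR4 was well expressed in both lines, with 29.6, 30.2, 30.2, 28.9 and 31.0 CPM in EA.hy926 libraries and 49.4, 48.5, 51.2, 47.7 and 48.3 CPM in HMEC-1. The line without RSPO4 counts therefore had the higher LGR4 level (log2FC = -0.71 ± 0.033, edgeR adjusted p = 1.5e-14), under the fold threshold. LGR6 had few counts, with 0.569, 0.482, 0.826, 0.755 and 0.566 CPM in EA.hy926 compared with 0.456, 0.245, 0.173, 0.270 and 0.288 CPM in HMEC-1. The groups just missed overlapping (log2FC = 1.18 ± 0.265, edgeR adjusted p = 3.3e-04), and in a test against a log2FC of 1 itself the adjusted p was 0.28. LGR5, a stem cell marker, had at most 1 count. ZNRF3 had 13.7, 12.3, 13.8, 12.3 and 12.9 CPM in EA.hy926 libraries and 13.1, 12.4, 12.5, 10.8 and 12.5 CPM in HMEC-1. Its groups overlapped (log2FC = 0.08 ± 0.058, edgeR adjusted p = 0.19), and the sign turned when library totals replaced the TMM factors. RNF43 had at most 2 counts, but other genes on the same strand cover 68.4% of its exonic bases, so reads there could belong to either.

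Of 10 frizzled receptor genes 9 were tested, and 3 passed both thresholds, beside 35.5% of all genes tested. FZD3 and FZD8 were higher and FZD9 lower in EA.hy926. The filter's limit was reached in all 5 libraries of EA.hy926 only by FZD3, and in those of HMEC-1 only by FZD9. FZD10 had no count. FZD8 (ENSG00000177283, chr10:35638247-35642296), which pairs with LRP6 in beta-catenin signalling, reached 15.9, 12.5, 14.5, 12.8 and 13.0 CPM in EA.hy926 compared with 2.51, 2.13, 2.06, 2.26 and 2.80 CPM in HMEC-1. All EA.hy926 libraries were thus several-fold higher (log2FC = 2.55 ± 0.092, edgeR adjusted p = 1.5e-16). FZD9 (ENSG00000188763, chr7:73433778-73436120) had 0.0541, 0, 0.142, 0.0520 and 0 CPM in EA.hy926 libraries and 0.998, 1.27, 1.11, 1.74 and 1.18 CPM in HMEC-1. Its log2FC was -4.58 ± 0.395 (edgeR adjusted p = 5.8e-10), which rests on 0 to 5 counts against 35 to 71, and it was -5.36 without EA.hy926 replicate 3. FZD3, which works in axon guidance and planar polarity, had 0.677, 0.512, 0.740, 0.442 and 0.539 CPM in EA.hy926 compared with 0.285, 0.221, 0.173, 0.245 and 0.445 CPM in HMEC-1. Its groups overlapped slightly, the log2FC was 1.10 ± 0.271 (edgeR adjusted p = 8.3e-04), and the fold threshold was missed without HMEC-1 replicate 3 (log2FC = 0.95).

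The frizzled genes with the highest levels per kb were shared by the lines. FZD4 (ENSG00000174804, chr11:86945679-86955395), the receptor for Norrin in retinal vessels, had 132, 126, 130, 129 and 123 CPM in EA.hy926 libraries and 84.6, 85.2, 85.2, 84.5 and 87.5 CPM in HMEC-1. It was higher in EA.hy926, under the fold threshold (log2FC = 0.58 ± 0.026, edgeR adjusted p = 6.3e-15). Exons on the other strand, with PRSS23 as the gene of largest overlap, cover 18.9% of the exonic bases of FZD4. FZD6, known from planar polarity, went the other way with 65.4, 65.0, 65.5, 60.9 and 60.5 CPM against 82.4, 79.6, 85.1, 78.5 and 84.1 CPM in HMEC-1 (log2FC = -0.37 ± 0.033, edgeR adjusted p = 8.5e-10). FZD2 had 40.9, 38.4, 40.0, 39.9 and 39.4 CPM in EA.hy926 compared with 22.6, 24.8, 23.7, 24.6 and 23.5 CPM in HMEC-1 (log2FC = 0.74 ± 0.036, edgeR adjusted p = 3.8e-14). None of these 3 receptors overlapped between the lines. FZD5 had the lower level in EA.hy926, 5.97 ± 0.685 CPM against 7.93 ± 0.229 CPM (log2FC = -0.41 ± 0.076, edgeR adjusted p = 4.5e-05).

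FZD1 and FZD7, relatives of FZD2, did not pass the test. FZD1 had 7.17, 5.78, 7.46, 7.63 and 7.73 CPM in EA.hy926 libraries and 6.30, 6.20, 7.18, 6.04 and 7.27 CPM in HMEC-1 (log2FC = 0.12 ± 0.084, edgeR adjusted p = 0.19). Without EA.hy926 replicate 2, its lowest library, the log2FC was 0.19 with an adjusted p of 0.027, and with library totals it was -0.0164. FZD7 had 0.379, 0.331, 0.142, 0.156 and 0.269 CPM against 0.228, 0.417, 0.325, 0.417 and 0.183 CPM in HMEC-1 (log2FC = -0.31 ± 0.330, edgeR adjusted p = 0.38). Both genes overlapped between the lines.

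The summed frizzled level was 48.9 ± 1.46 CPM per kb in EA.hy926 compared with 41.3 ± 0.682 CPM per kb in HMEC-1. Per exon length, FZD4 made up 35.5 ± 0.47% of it in EA.hy926 ahead of FZD6 with 31.95 ± 0.85%, and their ranges did not overlap. In HMEC-1, FZD6 led with 48.8 ± 1.1% ahead of FZD4 with 27.98 ± 0.28%. FZD2 came next in both lines, with 21.5% and 15.3%. The lead of FZD6 in HMEC-1 depended on the length used, since per coding length FZD4 made up 45.9% there and FZD6 33.2%, and undivided they made up 40.7% and 39.0%.

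The co-receptor LRP5 (ENSG00000162337, chr11:68312591-68449275), known for bone mass and retinal vessels, had 242, 212, 227, 214 and 212 CPM in EA.hy926 libraries and 86.5, 77.9, 80.9, 84.0 and 83.3 CPM in HMEC-1. Its lowest EA.hy926 library was above the highest HMEC-1 library (log2FC = 1.43 ± 0.037, edgeR adjusted p = 4.1e-19). LRP6 had 66.3, 61.9, 64.0, 58.8 and 58.9 CPM in EA.hy926 compared with 72.1, 67.7, 68.2, 67.8 and 71.3 CPM in HMEC-1. The groups did not overlap, but the difference was small and in the other direction (log2FC = -0.16 ± 0.035, edgeR adjusted p = 1.9e-04). Per kb of exon LRP5 made up 85.7 ± 0.33% of the pair in EA.hy926 libraries and 66.6 ± 0.62% in HMEC-1. Undivided by length these shares were 78.1% and 54.3%, and per coding length 77.7% and 53.7%. ROR1 (ENSG00000185483, chr1:63774017-64181498), a receptor of WNT5A, had 20.1, 19.3, 17.4, 18.1 and 20.02 CPM in EA.hy926 compared with 46.0, 43.2, 44.5, 43.2 and 42.5 CPM in HMEC-1. It was lower in EA.hy926 in every library (log2FC = -1.21 ± 0.043, edgeR adjusted p = 1.0e-16). The related ROR2 had 0 counts in EA.hy926 and at most 3 in HMEC-1.

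Of the 8 secreted antagonists of the DKK and SFRP families, DKK1, DKK3 and SFRP1 were expressed in both lines. Per kb of exon, DKK1 had the highest level of the 56 genes in both lines, at 63.0 CPM per kb in EA.hy926 libraries and 32.4 CPM per kb in HMEC-1. Undivided by length, LRP5 was above DKK1 in EA.hy926 (means of 222 and 140 CPM). Other genes were above it in HMEC-1, with DKK3 first at 200 CPM against 71.9 CPM for DKK1. DKK1 (ENSG00000107984, chr10:52314281-52318042), which blocks LRP5 and LRP6, had 123, 142, 140, 147 and 147 CPM in EA.hy926 compared with 78.5, 75.2, 70.3, 68.5 and 66.9 CPM in HMEC-1. The EA.hy926 libraries were all higher, with a log2FC of 0.96 ± 0.046 just under the threshold (edgeR adjusted p = 2.4e-14), and the log2FC was 1.01 without EA.hy926 replicate 1. DKK3 (ENSG00000050165, chr11:11956207-12009769), a divergent member of the family, had 76.0, 74.7, 70.0, 68.7 and 69.3 CPM in EA.hy926 libraries and 198, 201, 197, 200 and 203 CPM in HMEC-1. It was lower in EA.hy926 (log2FC = -1.48 ± 0.030, edgeR adjusted p = 4.4e-21). Exons on the other strand, with USP47 as the gene of largest overlap, cover 47.5% of the exonic bases of DKK3. Reads there cannot be told apart where strand was not used. DKK2 and DKK4 had no count.

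SFRP proteins bind Wnt ligands outside the cell. SFRP1 (ENSG00000104332, chr8:41261962-41309473) had 46.1, 46.6, 43.9, 46.3 and 45.0 CPM in EA.hy926 compared with 16.5, 16.7, 17.5, 17.8 and 16.1 CPM in HMEC-1. It was higher in every EA.hy926 library (log2FC = 1.43 ± 0.038, edgeR adjusted p = 6.3e-19). SFRP2 had 0 counts in EA.hy926 libraries and 0.342, 0.441, 0.694, 0.540 and 0.602 CPM in HMEC-1, on 12 to 32 counts, which is a difference of at least 5.8-fold (edgeR adjusted p = 2.4e-08). SFRP4 had at most 1 count and SFRP5 none. Per kb of exon, DKK1 made up 80.1% of the summed DKK and SFRP level in EA.hy926 compared with 61.1% in HMEC-1, and DKK3 7.66% and 31.6%. DKK3 has long annotated exons, and per coding length or undivided it came first in HMEC-1 with 63.3% and 69.1%.

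AXIN1, the scaffold of the destruction complex, was nearly level, with 41.4, 41.3, 40.3, 41.1 and 40.1 CPM in EA.hy926 libraries and 41.7, 43.0, 45.8, 43.5 and 43.1 CPM in HMEC-1 (log2FC = -0.09 ± 0.032, edgeR adjusted p = 0.015). AXIN2 (ENSG00000168646, chr17:65528563-65561648) has the same role and is also a widely used transcriptional target of beta-catenin. It had 1.79, 1.33, 1.25, 1.59 and 1.24 CPM in EA.hy926 compared with 6.42, 5.83, 6.09, 6.82 and 6.36 CPM in HMEC-1. All EA.hy926 libraries were lower (log2FC = -2.12 ± 0.107, edgeR adjusted p = 5.3e-14). Exons on the same strand, with a readthrough gene as the gene of largest overlap, cover 25.3% of the exonic bases of AXIN2. Reads there could belong to either.

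Among the TCF/LEF factors, which carry beta-catenin to DNA, all 4 genes were tested. LEF1 (ENSG00000138795, chr4:108047545-108168956) and TCF7 (ENSG00000081059, chr5:134114681-134151865) were lower in EA.hy926 past both thresholds, and TCF7L1 and TCF7L2 differed by less. LEF1 had 0.570, 1.20, 1.06, 0.883 and 1.20 CPM in HMEC-1, whereas EA.hy926 had 2 counts in all, both in replicate 2, and thus none without that library. The ratio of HMEC-1 to EA.hy926 was 89.96 (95% counting interval 24.6 to 748, edgeR adjusted p = 3.8e-10). TCF7 had 0.325, 0.211, 0.513, 0.286 and 0.512 CPM in EA.hy926 libraries and 3.14, 2.01, 2.60, 2.87 and 2.56 CPM in HMEC-1 (log2FC = -2.82 ± 0.204, edgeR adjusted p = 3.0e-11). Neither gene overlapped between the lines. TCF7L1, which acts mostly as a repressor, had 27.0, 24.6, 22.6, 20.8 and 21.96 CPM in EA.hy926 compared with 42.9, 39.5, 43.2, 44.8 and 46.3 CPM in HMEC-1. Its difference lay under the fold threshold (log2FC = -0.89 ± 0.057, edgeR adjusted p = 3.8e-12) and passed it with library totals. TCF7L2 was higher in EA.hy926 with 41.1, 41.3, 39.1, 34.4 and 36.6 CPM against 27.4, 26.6, 27.8, 27.5 and 28.6 CPM (log2FC = 0.48 ± 0.047, edgeR adjusted p = 4.0e-09).

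As shares of the TCF/LEF level per kb of exon, TCF7L2 and TCF7L1 were close in EA.hy926, at 51.8 ± 1.2% and 47.8 ± 1.3%, with ranges that met. TCF7L1 made up 68.3 ± 0.76% in HMEC-1 and TCF7L2 28.6%, and TCF7 and LEF1 added 1.82% and 1.28%. Undivided by length, TCF7L2 led in EA.hy926 with 61.8% and TCF7L1 led in HMEC-1 with 58.1%.

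**Figure D3:**
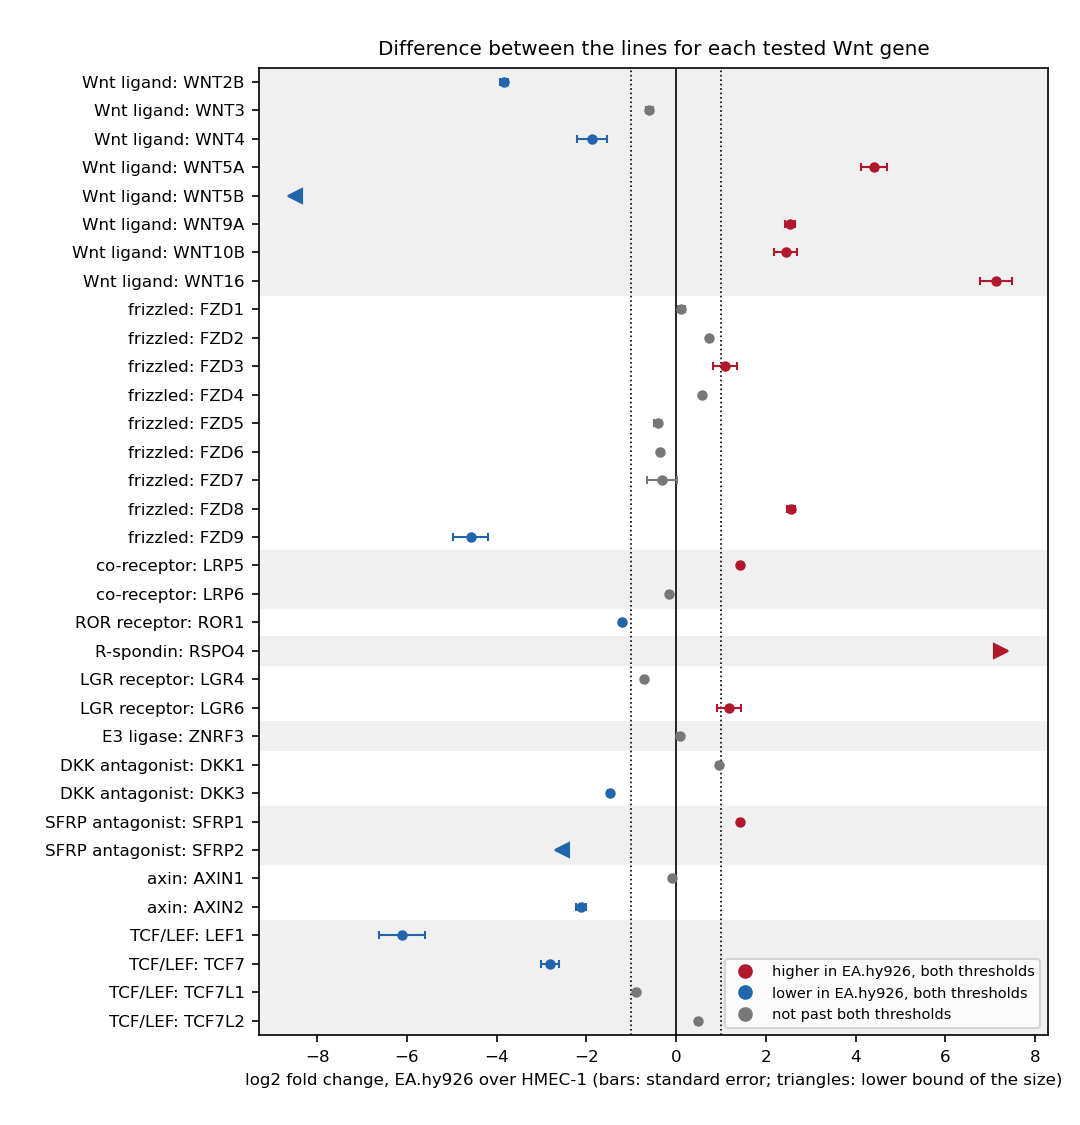
The log2FC of EA.hy926 over HMEC-1 for the 34 tested Wnt genes with standard error bars, coloured by whether both thresholds (dotted lines at -1 and 1 for the fold) were passed. Triangles mark the lower bounds of WNT5B (360-fold), RSPO4 (152-fold) and SFRP2 (5.8-fold), and 14 genes lie between the dotted lines in grey.

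Promoters of 39 of the 56 genes were found in the RefSeq table of GRCh38.p14, and the 250 bases before each start were searched for the TCF/LEF core CTTTGA on both strands. Of the 48 promoters of these genes, 1 held it, that of DKK1 (2.08%), and 11.2% of the 35116 promoters in the table did. The median GC content of these promoters was 66.6%, against 58% for all promoters. Because DKK1 was also first in level per kb of exon, its 250 bases (chr10:52314031-52314280, plus strand) are given with both matches in capitals, which start 149 and 95 bases before the start site. A match is a run of letters and not a measured binding site.
DKK1 promoter: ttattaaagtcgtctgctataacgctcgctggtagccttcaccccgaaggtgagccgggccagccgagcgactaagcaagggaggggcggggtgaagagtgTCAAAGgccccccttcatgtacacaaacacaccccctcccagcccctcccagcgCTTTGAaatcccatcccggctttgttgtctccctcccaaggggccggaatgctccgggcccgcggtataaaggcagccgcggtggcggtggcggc

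A list of 67 other genes of the pathway was described beside these. Of 54 tested, 22 passed both thresholds (35.5% of all genes tested did), 9 higher and 13 lower in EA.hy926. Lower genes such as GPC4 and VANGL2, at 0 in EA.hy926, entered the test only through HMEC-1. So did TRABD2B, TNFRSF19 and CLDN5, with at most 6 counts in any EA.hy926 library. Where at least 10 counts in every library were required, 7 lower genes remained, so these counts describe the genes the filter kept. An adjusted p under 0.05 was reached by 50 genes, as it was by 85.8% of all genes tested. The median log2FC of the 54 genes was 0.03 and the median absolute log2FC 0.76, beside -0.010 and 0.65 over all genes tested. All 15 genes of the cytoplasmic beta-catenin pathway were tested and 1 passed, APC2, a relative of APC (log2FC = 2.09 ± 0.082, edgeR adjusted p = 5.7e-16). Of 9 nuclear co-factors such as BCL9 and the TLE repressors, 0 passed both thresholds in edgeR, although all 9 had an unadjusted and 8 an adjusted p under 0.05. DESeq2 and limma-voom called 0 of them as well.

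Of 8 other receptors and co-receptors 6 were tested, and 5 passed, beside 35.5% of all genes tested. TSPAN12 (ENSG00000106025), which joins FZD4 in the Norrin receptor, had 23.9 ± 1.54 CPM in EA.hy926 libraries and 0.515 ± 0.170 CPM in HMEC-1 (log2FC = 5.50 ± 0.108, edgeR adjusted p = 2.9e-21). Norrin itself (NDP) had 0 counts in EA.hy926 compared with 4 to 6 in HMEC-1 and was not tested. ADGRA2 (GPR124), a partner of WNT7 ligands in brain vessels, had 0.307 ± 0.117 CPM in EA.hy926 libraries and 85.3 ± 2.23 CPM in HMEC-1 (log2FC = -8.09 ± 0.079, edgeR adjusted p = 3.1e-26). RECK, its partner in that complex and named after its values were seen, had 17.5 ± 0.495 CPM against 103 ± 3.09 CPM (log2FC = -2.55 ± 0.033, edgeR adjusted p = 3.0e-24). Exons of other genes cover 23.0% of the exonic bases of ADGRA2. PTK7, a receptor of planar polarity, was lower too (log2FC = -3.34 ± 0.038, edgeR adjusted p = 3.1e-25), and the glypican GPC4, at 0 in EA.hy926, was lower by at least 29.9-fold (edgeR adjusted p = 4.6e-13).

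Planar polarity genes split in both directions, with 3 higher and 3 lower of 9 tested, beside 19.1% and 16.4% of all genes tested. The atypical cadherins CELSR1 and CELSR3 were higher in EA.hy926, with 95.2 ± 6.03 and 60.2 ± 2.05 CPM against 7.05 ± 0.275 and 5.01 ± 0.860 CPM in HMEC-1. Their log2FC values were 3.76 and 3.60 (edgeR adjusted p = 2.7e-24 and 1.3e-21). CELSR2 had the opposite pattern with 0.509 ± 0.184 CPM against 26.3 ± 1.17 CPM (log2FC = -5.68 ± 0.105, edgeR adjusted p = 1.0e-21). The formins DAAM1 and DAAM2, which link dishevelled to actin, were split likewise, with log2FC values of 1.57 and -2.53 (edgeR adjusted p = 1.4e-20 and 8.2e-14), though other genes cover 30.1% of the exonic bases of DAAM2. The core polarity gene VANGL2 had 0 counts in EA.hy926 compared with 31 to 46 in HMEC-1, lower by at least 9.88-fold (edgeR adjusted p = 3.8e-10).

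The DKK1 partners KREMEN1 and KREMEN2 were higher in EA.hy926 (log2FC = 1.13 and 1.44, edgeR adjusted p = 3.0e-12 and 3.5e-07), and the other 6 antagonists of the list were not tested. Of 5 genes for ligand secretion and inactivation 4 were tested, and the Wnt-cleaving protease TRABD2B was lower (log2FC = -3.16 ± 0.532, edgeR adjusted p = 1.2e-05) on 0 to 6 counts against 13 to 26, and its log2FC was -4.31 without EA.hy926 replicate 3. Of 12 genes known as Wnt targets 9 were tested, and 2 were higher and 5 lower, beside 19.1% and 16.4% of all genes tested. The cell cycle gene CCND1 and the adhesion receptor CD44 were higher (log2FC = 2.73 and 1.70, edgeR adjusted p = 1.4e-25 and 8.7e-23). CLDN5, TNFRSF19 and BAMBI were lower (log2FC = -4.27, -2.37 and -2.18, edgeR adjusted p = 8.7e-11, 1.9e-05 and 5.7e-13), the first 2 on at most 6 counts in any EA.hy926 library, as was SOX17, an endothelial transcription factor named after its values were seen (log2FC = -2.07 ± 0.060, edgeR adjusted p = 3.0e-18). These targets respond to other pathways as well, and those past both thresholds lay in both directions.

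**Figure D4:**
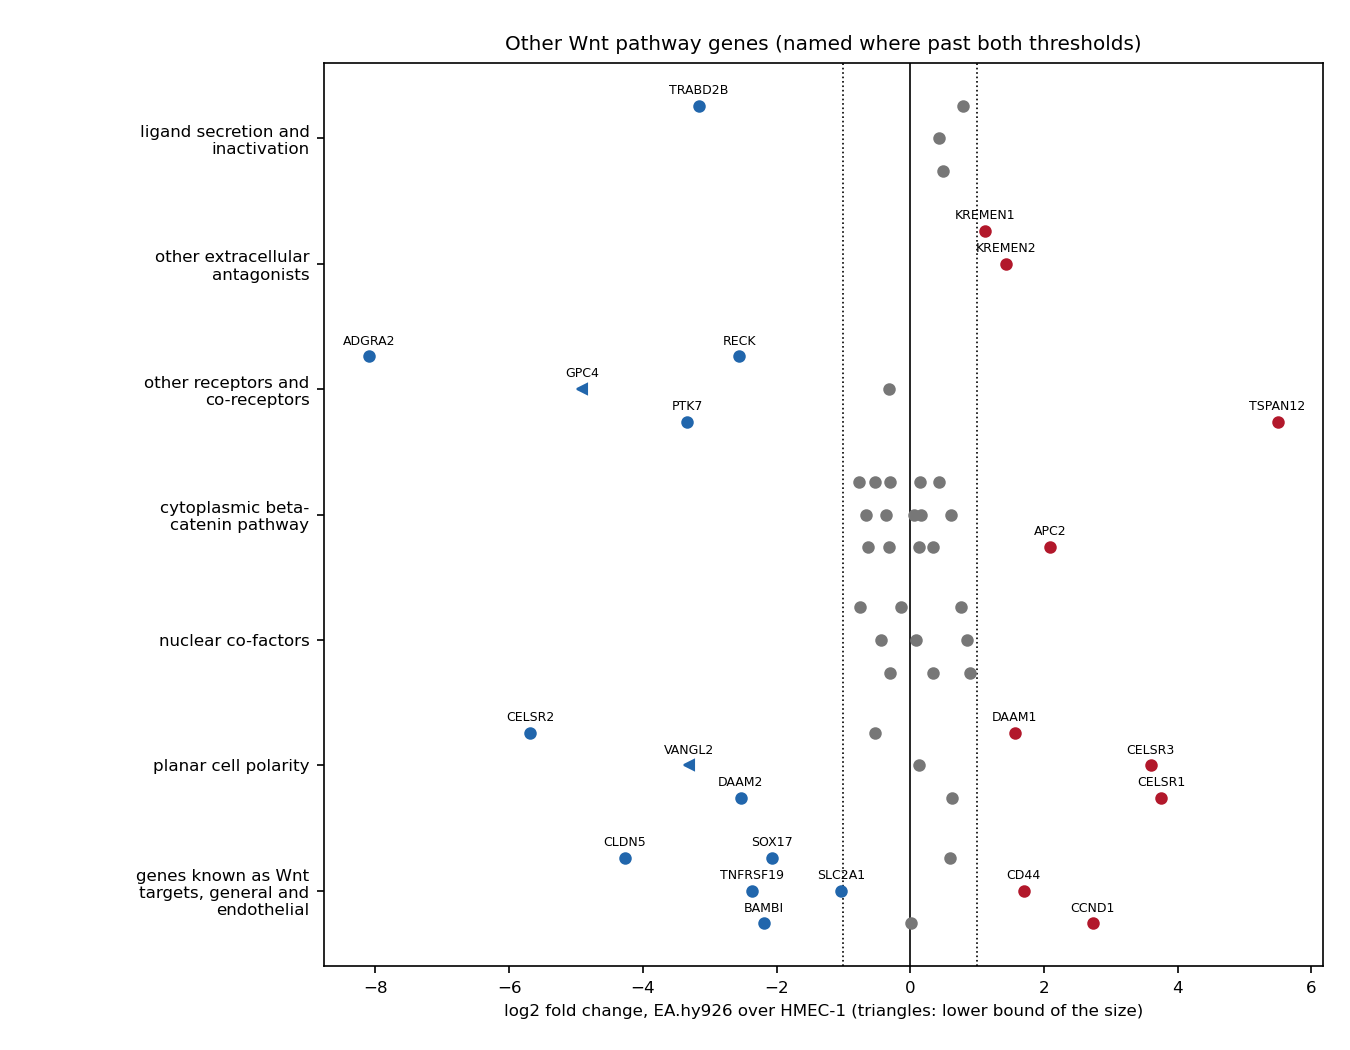
The log2FC of EA.hy926 over HMEC-1 for the 54 tested genes of the pathway list by sublist, 1 point per gene, red for higher and blue for lower past both thresholds and grey for the others, with triangles for lower bounds. Cytoplasmic and nuclear genes other than APC2 lie between -1 and 1, and 5 of 6 receptors and 6 of 9 planar polarity genes lie outside, on both sides. Over all genes tested, 35.5% passed both thresholds. Genes at or near 0 in EA.hy926, such as GPC4 and VANGL2, entered the test only through HMEC-1.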

How the data were processed

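Poly(A) RNA of 5 libraries per line was sequenced on an Illumina instrument. The authors deposited raw read counts per Ensembl gene. Their paper states alignment to GRCh38 with HISAT2 and counting with HTSeq, whereas the submitters' processing notes list fastp, HISAT2, featureCounts and DESeq2. The annotation release and strand setting are not given in the sources used here.

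Symbols, coordinates and exon unions came from GENCODE 44, which matched 56434 of 60448 identifiers, and exonic overlaps from bedtools 2.31.1. The filter was filterByExpr (at least 10 counts, total of at least 15). TMM factors were 0.942 to 0.964 for EA.hy926 libraries and 1.04 to 1.05 for the others. The lines were compared in R 4.3.3 by the quasi-likelihood test of edgeR 4.0.16 (glmQLFit, glmQLFTest), without covariates, with Benjamini-Hochberg adjustment. The standard error is the absolute log2FC over the square root of F. A gene at 0 throughout a line was set against 3 counts in the library of that line where these are worth most. The genes and lists were chosen with earlier results of these data known. All tested Wnt genes are named, and up to 3 genes per pathway sublist and direction by absolute log2FC, and RECK and SOX17 beyond that rule after their values were seen.

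On simulated counts, with both lines drawn from the same mean per gene apart from 200 genes changed 3-fold, edgeR recovered 200 of these 200. It tested 16044 genes and made 2 false calls. Differences as widespread as those in the data, and genes absent from 1 line, were not part of that simulation. Replicates are independent biological ones per the paper and differed beyond sampling noise (chi-square per gene 3.11 to 7.80 between pairs). Alternatives were DESeq2 1.42.0, limma-voom (limma 3.58.1), other filters and factors, a replicate block, a glmTreat test and leaving out each library.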

Additional observations from a re-analysis of the deposited data

Results flagged for a closer look

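Of 68 groups of 5 libraries (34 genes in each line), 3 had a library far from the other 4 by Dixon's test at the 95% level. Chance alone flags about 1 group in 20 where values vary continuously, which does not hold for groups near 0 counts. WNT5B and SFRP2 in EA.hy926 and RSPO4 in HMEC-1 were at 0 in all 5 libraries and could not be flagged. For FZD1, EA.hy926 replicate 2 had 5.78 CPM (192 counts), and the other EA.hy926 libraries had 7.17 to 7.73 CPM. For FZD4, HMEC-1 replicate 5 had 87.5 CPM, and the others had 84.5 to 85.2 CPM. For LEF1, EA.hy926 replicate 2 had 0.0603 CPM, which is 2 counts, and the others had 0.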

How the results depend on the processing

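DESeq2, limma-voom, RLE factors and the replicate block each called the same 20 Wnt genes. A minimum of 10 counts in every library left 21 of 34 Wnt genes testable and 8 called, 4 higher and 4 lower, and 7 lower genes of the pathway list, because genes near 0 in 1 line drop out (3255 of 13107 genes called). Without a filter 25 of 49 were called, the same 20 plus ROR2, RSPO3, WNT2, WNT7B and WNT9B (9312 of 33071 genes). Library totals shifted all genes by a median log2FC of -0.13, turned FZD1 to -0.0164 and ZNRF3 to -0.0517, lost FZD3 and gained TCF7L1. A glmTreat test against a log2FC of 1 left 18, losing FZD3 (adjusted p = 0.44) and LGR6 (0.28), and of the pathway list lost SLC2A1 (0.15).

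With each library left out, 19 to 21 Wnt genes were called (9 to 11 higher, 10 lower) and 22 to 23 of the pathway list (9 higher, 13 to 14 lower). Shares ran from 29.5% to 30.7% (WNT9A), 68.5% to 69.2% (WNT5B), 35.3% to 35.6% (FZD4), 48.5% to 49.1% (FZD6), 51.5% to 52.3% (TCF7L2) and 68.1% to 68.6% (TCF7L1). Without division by length the same 6 shares were 27.4%, 55.1%, 49.4%, 39.0%, 61.8% and 58.1%. Per coding length WNT5B had 59.0%, FZD4 54.1%, FZD6 33.2%, TCF7L2 56.3% and TCF7L1 62.7%.

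Replicates of the lines share only a number: deviations of same-numbered libraries correlated by -0.023 to 0.039, and 2 of 5 EA.hy926 libraries correlated best with their own number. With the replicate block 20 Wnt genes were called (10 higher, 10 lower), 22 of the pathway list (9 higher, 13 lower) and 5786 of all genes. Depth limits the genes near 0: ratios of WNT16 and LEF1 rest on 2 counts in 1 line, and those of WNT4, WNT5A, FZD9, TRABD2B, CLDN5 and TNFRSF19 on at most 6 counts per library.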
